A study of Mus musculus with 6 samples.

Results

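The genes described here encode the axoneme, the microtubule core of the motile cilium, together with Foxj1, a forkhead transcription factor needed for cells to make motile cilia. They were taken by name from the gene count table: protein-coding genes of the Cfap, Dnah, Dnai, Dnaaf, Rsph, Drc and Tekt families, and Foxj1. Of 81 such genes, 68 had a mean of at least 0.5 CPM (a gene's counts scaled to the total of its library) over the 6 libraries and were kept, out of 56748 genes in all. They were thus chosen by name and selected on 1 measured value, the mean over both groups. The genes were proposed with earlier results of these data in view, so the counts over them below are descriptions.

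A motile cilium beats because dynein arms, motor complexes along the outer microtubule doublets, slide one doublet against the next. Radial spokes and the nexin-dynein regulatory complex pass control signals to the arms, tektins and other inner proteins stiffen the doublet wall, and a central apparatus sits in the middle. In the brain, motile cilia are carried by the ependymal cells that line the ventricles and, in a modified form, by the choroid plexus epithelium. Neurons carry a primary cilium, which lacks most of this machinery.

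Bulk RNA came from 6 adult cerebella of the C57BL/6J strain, taken at 90 to 120 days of age. The dams of the 3 MeHg mice drank water with 0.2 ppm methylmercury (MeHg), a neurotoxic form of mercury that crosses the placenta, throughout gestation. The dams of the 3 Control mice drank water with 0 ppm. The dose ended at birth, so the tissue was taken months after the exposure, and by the labels each group has 2 females and 1 male. Dams and litters are not named in the labels, and each p-value therefore reflects only how far these 6 mice differed. Total counts were 14487022 to 15975367 in MeHg libraries and 14116088 to 20303833 in Control libraries. The 15 granule cell markers, which mark the most numerous neurons of the cerebellum, summed to 6292 to 7219 CPM in MeHg libraries and 8428 to 9003 CPM in Control libraries. All 15 had a lower mean in MeHg. Every MeHg library lay below every Control library for 12, against 16.2% of protein-coding genes with a mean of at least 0.5 CPM. At an adjusted p under 0.05 by edgeR, 6 of the 15 were lower, where 1.79% of all genes tested were.

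The library of Control 2 went against its label. It is labelled female, but Xist was at 0.249 CPM and the Y-linked Ddx3y at 87.2 CPM, where Control 1, also labelled female, had 772 and 0 CPM. Control 3, labelled male, had 0.0719 and 81.7 CPM. By these RNAs the sexes are not split alike in MeHg and Control. Without Control 2 Foxj1 had a log2 fold change of 1.29 (adjusted p = 0.0426 by edgeR), and the counts without that library are given below. Neighbouring tissue also differed between libraries. The 19 choroid plexus markers summed to 4639, 2698 and 10640 CPM in MeHg 1, 2 and 3, against 3278, 821 and 170 CPM in Control 1, 2 and 3. The 14 midbrain and brainstem markers summed to 58.5, 269 and 62.0 CPM in the MeHg libraries, against 21.5, 52.0 and 26.0 CPM in the Control libraries. All 19 choroid plexus markers had a higher mean in MeHg, with a median log2 ratio of 1.83. For 18 it was at least 2-fold higher, against 3.62% of protein-coding genes with a mean of at least 0.5 CPM. By edgeR 0 were called higher, where 0.575% of all genes tested were. At an unadjusted p under 0.05, 12 were higher (63.2%), against 11.8% of all genes. Of these markers 1, Kcne2, was at 0 in Control 3.

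The sequence just before the transcription start is shown for 6 of the 7 genes that were called higher in MeHg and for Dnaaf9, the gene of the 68 with the most counts, which was not called. Each stretch holds the 120 bases before the start of the GENCODE canonical transcript, read 5′ to 3′ on the gene's own strand in GRCm39. Capitals mark the RFX half-site GTTGCC, the letters bound by the RFX factors of ciliated cells, on either strand.

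Foxj1 (chr11:116226226-116226345, minus strand): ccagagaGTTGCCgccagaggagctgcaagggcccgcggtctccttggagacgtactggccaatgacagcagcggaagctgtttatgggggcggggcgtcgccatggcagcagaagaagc
Cfap44 (chr16:44215032-44215151, plus strand): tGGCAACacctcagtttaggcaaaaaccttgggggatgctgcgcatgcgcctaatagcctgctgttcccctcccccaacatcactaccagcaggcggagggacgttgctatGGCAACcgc
Dnah10 (chr5:124802029-124802148, plus strand): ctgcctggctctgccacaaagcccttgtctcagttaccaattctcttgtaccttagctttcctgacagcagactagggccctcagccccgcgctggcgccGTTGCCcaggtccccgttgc
Cfap52 (chr11:67856482-67856601, minus strand): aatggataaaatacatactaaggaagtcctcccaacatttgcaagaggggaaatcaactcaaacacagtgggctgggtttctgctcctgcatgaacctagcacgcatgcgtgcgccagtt
Rsph1 (chr17:31496379-31496498, minus strand): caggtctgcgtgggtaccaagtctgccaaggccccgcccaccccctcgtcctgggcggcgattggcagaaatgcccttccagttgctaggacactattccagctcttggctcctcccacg
Dnah2 (chr11:69439935-69440054, minus strand): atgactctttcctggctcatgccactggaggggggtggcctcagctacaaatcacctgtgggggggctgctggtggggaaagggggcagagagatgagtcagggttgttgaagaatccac
Dnaaf9 (chr2:130682295-130682414, minus strand): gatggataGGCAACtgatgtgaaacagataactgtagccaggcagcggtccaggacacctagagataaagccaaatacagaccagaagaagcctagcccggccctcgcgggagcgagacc

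The half-site was searched in the 300 bases from 250 before to 50 after the start, on both strands. It was present in 26 of the 68 genes (38.2%), against 11.8% of 21770 promoters of protein-coding genes. It was held by 10 of the 34 genes whose MeHg libraries all lay above the Control libraries (29.4%) and by 16 of the other 34 (47.1%). Among the genes shown it stood in Foxj1, 113 bases before the start, and in Cfap44, Dnah10 and Dnaaf9. It was in 23 of 65 promoters of primary cilium genes (35.4%). The forkhead motif GTAAACA was in 2 of the 68 (2.94%), Cfap20 and Cfap43, against 3.15% of all promoters. A match of letters is not a binding site, and a promoter without these letters says nothing about the factor.

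The question was whether axoneme RNA differed in the adult cerebellum after exposure before birth. In the test across all genes, 7 of the 67 genes tested rose in MeHg and 0 fell. The share called over all 16859 genes was 2.36%, made up of 0.575% higher and 1.79% lower in MeHg. The test was edgeR's quasi-likelihood fit of 3 against 3 libraries, with a call at a Benjamini-Hochberg adjusted p under 0.05. The 7 were Foxj1, 3 Cfap genes, the dynein heavy chains Dnah2 and Dnah10, and the spoke protein Rsph1. At an unadjusted p under 0.05, 37 were higher and 1 was lower, against 11.8% and 12.7% of all genes tested. Over all 68, the mean was higher in MeHg for 60, where 52.1% of 14423 protein-coding genes at the same floor were higher. The median log2 ratio of mean CPM was 0.71, and 0.01 for those 14423 genes. The mean was at least 2-fold higher for 24 of the 68 (35.3%), against 3.62%. Every MeHg library lay above every Control library for 34 (50%), against 15.1%, and every MeHg library lay below for 2, against 16.2%. From bulk tissue, more ciliated cells and more RNA per ciliated cell cannot be told apart.

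The calls sat at the edge of the threshold. The 7 adjusted p-values ran from 0.0431, the lowest of any gene, to 0.0458, and the count without 1 library ran from 0 to 15. It was 0 without MeHg 1, MeHg 3, Control 1 or Control 3, 15 without MeHg 2, and 6 without Control 2, of which 5 were among the 7. The median of the fitted log2 fold changes of the genes tested, 0.69 with all libraries, stayed between 0.65 and 0.84 in those fits.

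**Figure D1:**
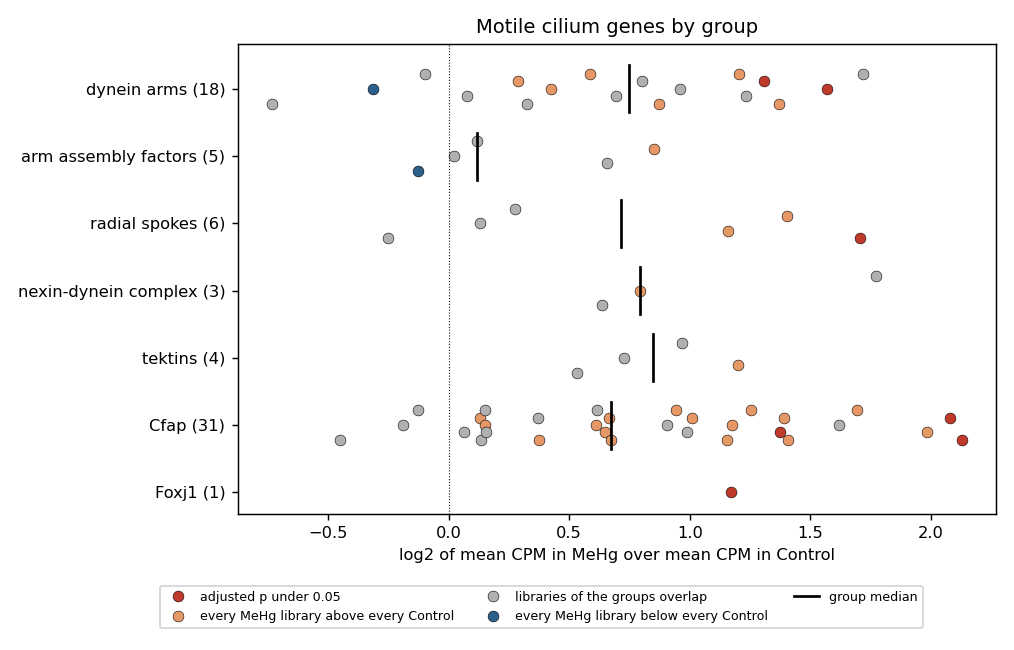
Log2 of the mean CPM in MeHg over the mean CPM in Control for the 68 genes, one point per gene, in rows by group with the number of genes in brackets. Red points have an adjusted p under 0.05, orange points have every MeHg library above every Control library, blue points every MeHg library below, grey points overlap, and black bars are group medians. The 7 called genes lie between 1.17 and 2.13, and the arm assembly factors have the lowest median, 0.12.

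Foxj1 (ENSMUSG00000034227, GRCm39 chromosome 11, 116221530 to 116226225, minus strand) had 21.6, 23.2 and 33.2 CPM in MeHg 1, 2 and 3, against 10.1, 13.4 and 11.1 CPM in Control 1, 2 and 3. The groups did not overlap. The rise was 1.17 ± 0.18 in log2 units (SE from the fit, adjusted p = 0.0431 by edgeR). Scaled to gene length as well (FPKM, the authors' values), it had 9.26 ± 2.28 FPKM in MeHg and 4.14 ± 0.581 FPKM in Control (SD, n = 3 each). Rfx2, an RFX factor that works with Foxj1 in ciliated cells, rose too. It had 7.85, 6.61 and 9.57 CPM in MeHg, against 3.40, 4.54 and 4.46 CPM in Control (0.96 ± 0.20, adjusted p = 0.0489 by edgeR). The other RFX factors listed were not called. Rfx1, Rfx3 and Rfx7 had log2 fold changes of -0.27, -0.30 and -0.23, and Rfx4 was at 0.085.

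Of the 18 dynein arm genes, 15 had a higher mean in MeHg, 8 had all MeHg libraries above all Control libraries, and 2 were called. Over the protein-coding genes at the floor, 52.1% had a higher mean and 15.1% had all MeHg libraries above. Of all genes tested, 0.575% were called higher. Dnah2 and Dnah10 encode the heavy chains of the same inner arm, called f or I1. Dnah2 had 5.13, 7.59 and 5.93 CPM in MeHg, against 2.38, 3.14 and 2.01 CPM in Control (log2 fold change 1.29 ± 0.24, adjusted p = 0.0431 by edgeR). Dnah10 had 5.07, 8.51 and 6.67 CPM in MeHg, against 2.28, 3.04 and 1.51 CPM in Control (1.54 ± 0.29, adjusted p = 0.0433 by edgeR). Neither gene overlapped between groups, and both were highest in MeHg 2.

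The outer arm heavy chains did not share a direction. Dnah9, the chain of the distal part of the cilium, had 5.57, 7.85 and 10.7 CPM in MeHg and 3.75, 3.54 and 2.01 CPM in Control (1.35 ± 0.30, adjusted p = 0.0519 by edgeR). Its groups did not overlap, but it missed the threshold. Dnah5, the most widely used outer chain, overlapped, with 5.07, 6.74 and 4.25 CPM in MeHg and 2.38, 4.39 and 3.16 CPM in Control. Dnah11, the outer chain of the proximal part, lay the other way, with 23.7, 21.5 and 22.2 CPM in MeHg and 32.0, 23.9 and 28.0 CPM in Control. Every MeHg library was below every Control library, at -0.31 ± 0.12 (adjusted p = 0.153 by edgeR). Dnah17, known from the sperm flagellum, had the lowest of the 67 fitted folds (-0.71 ± 0.34), at 1.05 to 1.67 CPM in MeHg and 1.52 to 2.95 CPM in Control.

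Among the other inner arm chains, Dnah12 had every MeHg library above every Control library, with 2.16, 4.84 and 3.30 CPM in MeHg and 0.913, 2.05 and 1.51 CPM in Control. Dnah1 and Dnah3 had a log2 fold change of 1.22 ± 0.47 and 0.96 ± 0.47, but their libraries overlapped. Dnah6 differed by less and also did not overlap, at 23.1, 19.8 and 26.2 CPM in MeHg and 19.2, 19.1 and 18.3 CPM in Control (0.29 ± 0.12). Dnah7a, Dnah7b and Dnah7c are close copies on chromosome 1, so their single values are uncertain. They had log2 fold changes of 0.79 ± 0.67, 0.08 ± 0.17 and -0.10 ± 0.27. All 4 intermediate chains had a higher mean in MeHg, with log2 ratios of 0.43 to 1.72. For 3, Dnai1, Dnai2 and Dnai4, the libraries did not overlap, where 15.1% of protein-coding genes at the floor lay wholly above. The spans of Dnai1 and Dnai4 overlap Enho (72.4 CPM) and Mier1 (46.6 CPM) on the opposite strand, so both values are uncertain. Dnai1 and Dnai2 belong to the outer arm, and Dnai3 and Dnai4 to inner arm f. Dnai3 was uneven, with 4.21, 1.37 and 4.38 CPM in MeHg 1, 2 and 3, against 1.57, 1.10 and 0.359 CPM in Control.

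The arm assembly factors fold and pair the dynein chains in the cytoplasm before they enter the cilium. Of 5, 0 were called, against 2.36% of all genes tested, and their median log2 ratio, 0.12, was the lowest of the groups. The spans of Dnaaf2, Dnaaf3, Dnaaf5 and Dnaaf10 overlap other genes counted at 10% or more of their own CPM. Their values, and so this median, are uncertain. Dnaaf9, whose Tetrahymena relative Shulin holds outer arms shut during transport, had the most counts of the 68, at 172, 180 and 168 CPM in MeHg and 188, 184 and 197 CPM in Control. Its MeHg libraries all lay below its Control libraries, by a small amount (-0.13 ± 0.06, adjusted p = 0.214 by edgeR). Dnaaf5 (0.12 ± 0.16) and Dnaaf10 (0.02 ± 0.17) overlapped. Dnaaf3, a factor with 2.04, 1.24 and 2.09 CPM in MeHg and 1.01, 1.10 and 0.862 CPM in Control, did not overlap (0.84 ± 0.31, adjusted p = 0.150 by edgeR). Dnaaf2 had a log2 fold change of 0.62 ± 0.39 and overlapped.

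Of the 6 radial spoke genes, 5 had a higher mean in MeHg, against 52.1% of protein-coding genes at the floor. The fit called 1 higher, against 0.575% of all genes tested. The spoke head genes Rsph1, Rsph4a and Rsph9 had every MeHg library above every Control library, as did 15.1% of protein-coding genes at the floor. The span of Rsph9 overlaps Mrps18a (28.15 CPM) on the opposite strand, so the value of Rsph9 is uncertain. Rsph1 had 4.76, 5.95 and 9.91 CPM in MeHg, against 2.38, 2.49 and 1.44 CPM in Control. It rose by 1.68 ± 0.32 on the log2 scale (adjusted p = 0.0433 by edgeR). Rsph9 had 7.36, 6.41 and 11.3 CPM in MeHg and 4.62, 3.69 and 2.95 CPM in Control (1.14 ± 0.26, adjusted p = 0.0532). Rsph4a had 3.83, 5.17 and 8.63 CPM in MeHg and 2.49, 3.24 and 0.934 CPM in Control (1.37 ± 0.42, adjusted p = 0.102). MeHg 3 was the highest library for all 3. The stalk genes Rsph3a (-0.25 ± 0.27) and Rsph3b (0.26 ± 0.27), which are close copies and may share reads, overlapped between groups. So did Rsph10b (0.13 ± 0.18), whose Chlamydomonas relative is a spoke head protein. The span of Rsph10b overlaps Pms2 (17.8 CPM) on the same strand, so its value is uncertain too.

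The 3 genes of the nexin-dynein regulatory complex, which links neighbouring doublets and limits sliding, all had a higher mean in MeHg. Of the 3, 0 were called, against 2.36% of all genes tested. Drc3 had 6.74, 8.44 and 9.57 CPM in MeHg and 5.28, 5.04 and 3.95 CPM in Control, without overlap (0.79 ± 0.19, adjusted p = 0.0638 by edgeR). Drc1 overlapped, at 0.63 ± 0.26. Drc7 had the widest spread, with 12.4, 8.90 and 27.6 CPM in MeHg and 9.99, 3.84 and 0.503 CPM in Control (1.73 ± 0.70, adjusted p = 0.175). Its 6 libraries stood in the same order as those of Ttr, the thyroxine carrier of the choroid plexus, with 2554, 1451 and 6381 CPM in MeHg and 1742, 358 and 4.60 CPM in Control. Of the 68 genes, 3 had that order (Drc7, Dnai3 and Dnaaf2), as did 18 of the 19 choroid plexus markers, Ttr included. With the mean of the choroid plexus markers as a term in the model, the log2 fold change of Drc7 was -0.02.

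All 4 tektins had a higher mean in MeHg, with log2 ratios of 0.53 to 1.20. Of the 4, 0 were called, against 2.36% of all genes tested. Tekt1 did not overlap, with 3.40, 2.68 and 5.46 CPM in MeHg and 1.98, 1.40 and 1.65 CPM in Control (1.19 ± 0.31, adjusted p = 0.0706 by edgeR). Tekt5 was set apart by 1 library, MeHg 2, with 9.49 CPM, against 3.28 and 4.99 CPM in the other MeHg libraries and 2.99 to 4.14 CPM in Control. Tekt2 (0.47 ± 0.46) and Tekt4 (0.91 ± 0.49) were under 1.2 CPM in every library.

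**Figure D2:**
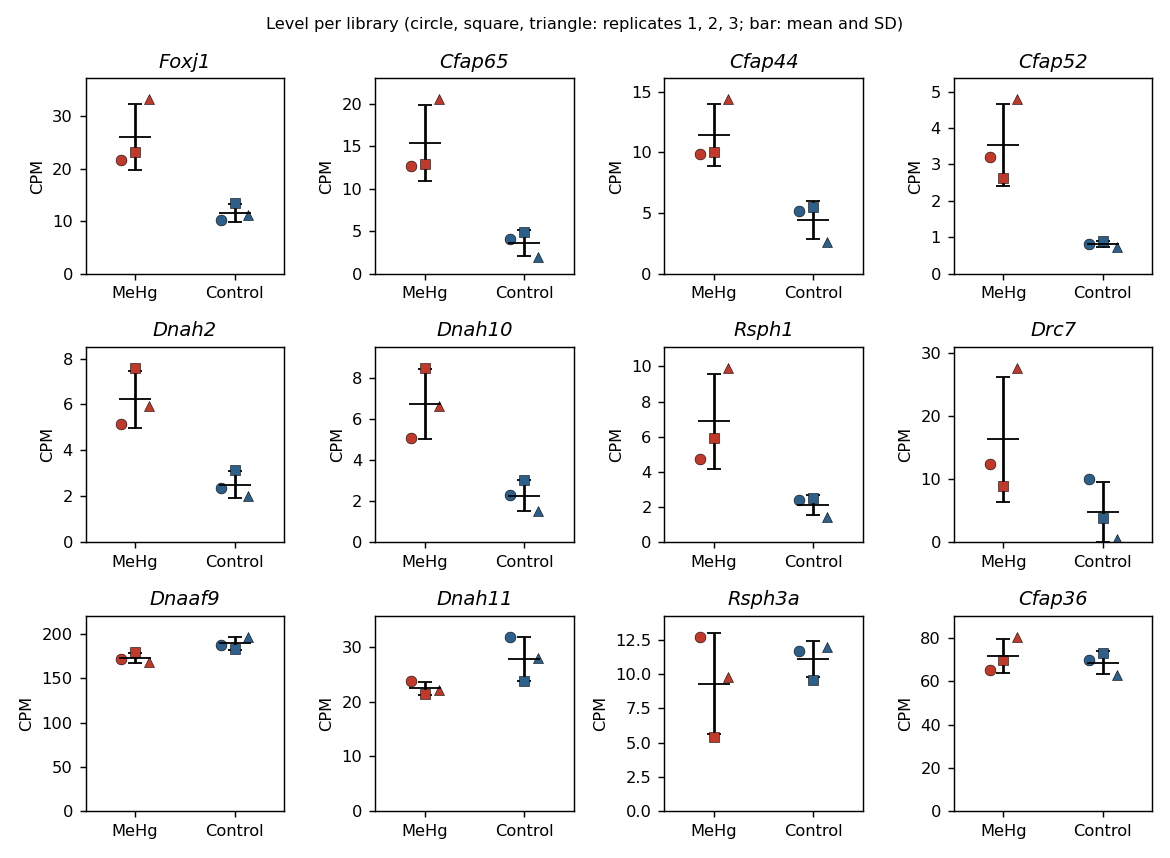
CPM of 12 of the 68 genes in each library, with MeHg left of Control. Circles, squares and triangles are replicates 1, 2 and 3, and the bars show the mean and SD of 3 libraries. The 7 called genes, from Foxj1 to Rsph1, have no overlap, while Drc7 spreads from 0.503 to 27.6 CPM and Dnaaf9 stays between 168 and 197 CPM.

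Of the 31 Cfap genes, 28 had a higher mean in MeHg, 19 had every MeHg library above every Control library, and 3 were called. Over the protein-coding genes at the floor, the first 2 shares were 52.1% and 15.1%. Of all genes tested, 0.575% were called higher. Cfap is a name for cilia and flagella associated proteins of many functions, so the genes are given by role. Among 7 genes of the central apparatus, Cfap65 had 12.7, 12.9 and 20.5 CPM in MeHg, against 4.11, 4.84 and 1.94 CPM in Control (2.05 ± 0.31, adjusted p = 0.0431 by edgeR). The groups did not overlap. Cfap69, another gene of this structure, had 17.1, 18.3 and 22.9 CPM in MeHg and 13.8, 13.8 and 10.7 CPM in Control (0.60 ± 0.15, adjusted p = 0.0656). Cfap47, Cfap54 and Cfap70 did not overlap either. Cfap74 was the 1 central apparatus gene with a lower mean in MeHg, with overlap (-0.19 ± 0.11).

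Among 7 proteins of the inside of the doublet wall, Cfap52 rose by 2.11 ± 0.31 on the log2 scale (adjusted p = 0.0431 by edgeR), the largest of the 67 fitted folds. It had 3.22, 2.62 and 4.79 CPM in MeHg, against 0.812, 0.898 and 0.719 CPM in Control, whose 3 libraries were nearly level. Cfap126, at 3.34, 3.27 and 6.40 CPM in MeHg and 1.42, 1.75 and 0.862 CPM in Control, had an adjusted p of 0.0502 by edgeR. Cfap20, an inner protein also found at basal bodies, differed little, at 32.2, 33.2 and 35.7 CPM in MeHg and 28.6, 30.9 and 31.6 CPM in Control (0.15 ± 0.09). Its libraries did not overlap.

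The 4 genes that tether or regulate inner arms included Cfap44, which rose by 1.35 ± 0.27 on the log2 scale (adjusted p = 0.0458 by edgeR), with 9.83, 10.01 and 14.4 CPM in MeHg and 5.12, 5.49 and 2.59 CPM in Control. Its partner Cfap43 (1.00 ± 0.25, adjusted p = 0.0638) and Cfap57 (1.40 ± 0.33, adjusted p = 0.0576) did not overlap, and Cfap100 did (0.15 ± 0.19). All 3 spoke-associated genes, Cfap61, Cfap91 and Cfap206, had every MeHg library above every Control library. Cfap206 had 2.16, 2.16 and 5.06 CPM in MeHg and 1.07, 0.948 and 0.359 CPM in Control (1.92 ± 0.47, adjusted p = 0.0613 by edgeR). The assembly genes Cfap298 (0.37 ± 0.18) and Cfap300 (0.68 ± 0.22) differed by less.

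The 5 Cfap genes listed with roles outside the axoneme had a median log2 ratio of 0.13. Cfap36, a partner of the small GTPase Arl3, had 65.1, 69.7 and 80.8 CPM in MeHg and 70.1, 73.1 and 63.0 CPM in Control (0.06 ± 0.09). Cfap97 had 27.3, 32.7 and 28.4 CPM in MeHg and 32.1, 33.6 and 31.0 CPM in Control (-0.13 ± 0.10). Both overlapped. The MeHg libraries of Cfap418, a photoreceptor gene, and Cfap97d2 all lay above the Control libraries, at 0.13 ± 0.08 and 0.64 ± 0.28, and neither was called. Cfap410, a basal body gene, overlapped (0.15 ± 0.10). Cfap99, of unlisted role, had the lowest Cfap fold, at -0.45 ± 0.26.

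Genes with many counts and genes with few differed in how far apart their groups lay. At a dividing level of 10 CPM, chosen after the values were seen, the 53 genes below it had a median log2 ratio of 0.91 and the 15 at or above it had 0.13. The 53 summed to 208, 252 and 292 CPM in MeHg 1, 2 and 3, against 141, 159 and 126 CPM in Control 1, 2 and 3. The 15 summed to 526, 534 and 587 CPM in MeHg and 529, 518 and 526 CPM in Control. Most counts of the 68 genes therefore came from 15 genes, Dnaaf9, Cfap36, Cfap97 and Cfap418 among them. Per length, the authors' FPKM averaged over the 6 libraries ran from 24.0 for Cfap36 and 16.0 for Dnaaf9 to 0.0587 for Dnah7a. The called genes ranged from 0.262 for Dnah10 to 6.70 for Foxj1 on that scale.

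**Figure D3:**
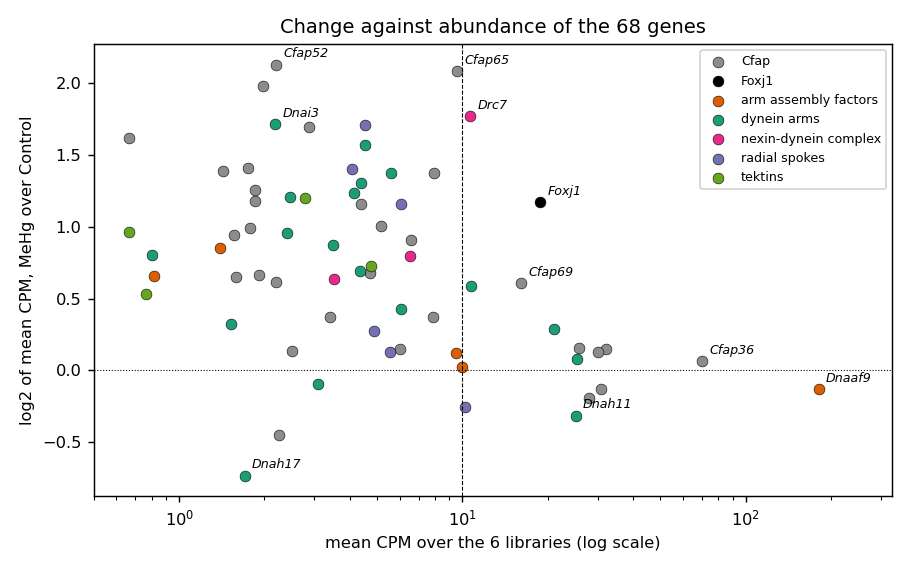
Log2 of the mean CPM in MeHg over the mean CPM in Control against the mean CPM over the 6 libraries (log scale), one point per gene, coloured by group. The dashed line marks 10 CPM: the 53 genes left of it have a median of 0.91 and the 15 right of it 0.13, with Foxj1 at 1.17 and Drc7 at 1.77 standing above the rest on that side.

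The libraries of a group were not alike. MeHg 3 was the highest of the 6 libraries for 40 of the 68 genes, against 20.3% of the protein-coding genes at the floor, and Control 3 the lowest for 34, against 20.4%. MeHg 2 was the highest for 15, of which 7 were dynein arm genes and 2 were tektins. Over the 68 genes the median log2 of CPM over the Control mean was 0.44, 0.77 and 0.86 in MeHg 1, 2 and 3, against 0.02, 0.13 and -0.15 in Control 1, 2 and 3. MeHg 3 and Control 3 also had the highest and lowest choroid plexus marker sums, and MeHg 2 the highest midbrain and brainstem sum.

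With the mean of the choroid plexus markers as a term in the model over all 6 libraries, 0 of the 67 genes were called, as were 0 of all 16859 genes (1954 at an unadjusted p under 0.05). The median log2 fold change was then 0.54, with 17 genes higher and 1 lower at an unadjusted p under 0.05. Foxj1 was at 1.05 (adjusted p = 0.364 by edgeR). For the brainstem markers no such fit was made, and their part in the result was not tested.

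**Figure D4:**
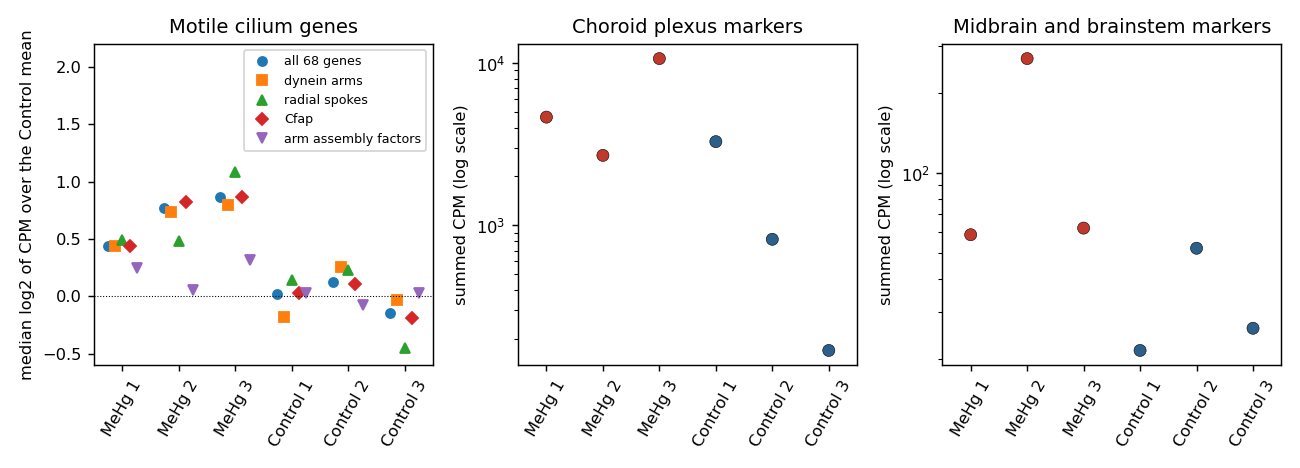
Values by library, with MeHg 1 to 3 left of Control 1 to 3. The left panel shows the median log2 of CPM over the Control mean for all 68 genes and 4 groups, and the other panels show the summed CPM of 19 choroid plexus and 14 midbrain and brainstem markers on a log scale. All 68 genes together lie at 0.44 to 0.86 in MeHg and -0.15 to 0.13 in Control. The choroid plexus sum runs from 2698 to 10640 CPM in MeHg and from 170 to 3278 CPM in Control.

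Cilium genes outside the name rule were taken from lists. Of 97 other motile cilium genes, covering arm docking, light chains and the central apparatus, 82 were tested, 5 rose and 0 fell, where 0.575% of all genes tested rose and 1.79% fell. The 5 were Catip, Nme5, Spag16, Spef2 and Efcab1. Spag16 and Spef2 are central apparatus genes, Nme5 encodes a spoke protein, and Efcab1 encodes calaxin, a calcium sensor of the outer arm. Catip had 3.28, 3.73 and 4.72 CPM in MeHg and 1.07, 1.65 and 0.719 CPM in Control (1.74 ± 0.32, adjusted p = 0.0431 by edgeR). Of the 90 at the 0.5 CPM floor, 40 had every MeHg library above every Control library and 1 had every library below, against 15.1% and 16.2% of the protein-coding genes at that floor. That 1 was Spag1, an arm assembly factor, with 31.4, 31.7 and 33.2 CPM in MeHg and 42.4, 37.5 and 45.4 CPM in Control (-0.38 ± 0.09, adjusted p = 0.0612 by edgeR).

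The 4 genes of that list with the most counts differed in direction. They were Tppp3, Spag1 and the light chain genes Dnal1 (0.01 ± 0.08) and Dnal4 (0.20 ± 0.10), both of which overlapped. Tppp3, a microtubule-bundling protein gene, had 76.9, 86.3 and 80.8 CPM in MeHg and 67.7, 68.6 and 66.8 CPM in Control without overlap (0.26 ± 0.07, adjusted p = 0.0642 by edgeR). Of 18 regulators of multiciliated cells 12 were tested, and Rfx2 was the 1 called, where 0.575% of all genes tested were called higher. Of the 14 at the 0.5 CPM floor, 2, Rfx2 and Ulk4, had every MeHg library above every Control library. Another 3 had every MeHg library below and were not called. Over the protein-coding genes at that floor, 15.1% lay above and 16.2% below. Rfx3, like Rfx2 an RFX factor of ciliated cells, had 26.1, 32.9 and 31.8 CPM in MeHg and 36.4, 36.7 and 38.5 CPM in Control (-0.30 ± 0.10, adjusted p = 0.127 by edgeR). Rfx1 was at -0.27 ± 0.09 and E2f4 at -0.25 ± 0.09. Gmnc had the highest fitted fold of the regulators and overlapped (2.255 ± 0.789, adjusted p = 0.131 by edgeR).

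Of 65 primary cilium and intraflagellar transport genes, 0 were called in either direction by edgeR, against 2.36% of all genes tested. At an unadjusted p under 0.05, 8 were higher (12.3%) and 5 were lower, where 11.8% and 12.7% of all genes were. In this list 0 genes were at least 2-fold higher. The median log2 ratio was 0.02, and their sums were 1961 to 2194 CPM in MeHg and 2002 to 2094 CPM in Control. The gene with the most counts, Kifap3, a subunit of the transport motor, was at -0.06 ± 0.07.

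Of 16 ependymal markers outside the name rule, 13 were tested and 2 rose, Nnat and Gm973, against 0.575% of all genes. At an unadjusted p under 0.05, 11 were higher and 0 lower, against 11.8% and 12.7% of all genes. Of the 13 at the 0.5 CPM floor, 9 had every MeHg library above every Control library, against 15.1%. The median log2 ratio of those 13 was 0.79. Nnat, which neurons also express, had 109, 168 and 116 CPM in MeHg and 72.4, 80.5 and 74.3 CPM in Control (0.79 ± 0.15, adjusted p = 0.0433 by edgeR). The list summed to 719 to 897 CPM in MeHg and 710 to 734 CPM in Control, but most of that sum was Pvalb, a gene of cerebellar neurons. Of the defining genes, Tmem212 had 1.86, 2.75 and 3.24 CPM in MeHg and 0.659, 1.45 and 0.719 CPM in Control, and Ccdc153 had 5.26, 9.03 and 6.34 CPM in MeHg and 1.07, 4.54 and 2.08 CPM in Control. Neither overlapped, and neither was called. Mia was at 0 in 4 libraries. The list shares Ak7, Dynlrb2 and Meig1 with the list of other motile cilium genes. The part that the number of ependymal cells had in the axoneme result was not tested.

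The floor itself left some genes close by. The 3 genes just inside were Tekt4 (0.662 CPM), Cfap77 (0.663 CPM) and Tekt2 (0.765 CPM), and the 3 just outside were Dnah8 (0.494 CPM), Dnaaf1 (0.458 CPM) and Cfap299 (0.457 CPM). Of those outside, Dnaaf1 and Cfap299 had every MeHg library above every Control library, at log2 ratios of 1.91 and 1.03. Dnah8 overlapped, at 0.235. Cfap77 was not tested, because too few libraries had enough counts. In Control libraries 2 of the 68 genes averaged under 0.5 CPM, and reached the floor through their MeHg libraries. Whether the counting used strand was not stated. The annotated span of 21 of the 68 genes overlaps another gene counted at 10% or more of their own CPM, on the opposite strand for 17. The 17 include Cfap43, Cfap61, Dnah17, Dnai4, Rsph9 and Dnai1, which overlaps Enho (72.4 CPM). Such values are uncertain, and none of the 7 called genes is among the 21.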

How the data were processed

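Paired-end reads (150 bases) of 6 cerebella were set against mm39, per the labels' protocols. DESeq2 appears among the tools in the submitters' processing notes. The aligner, the counter and any use of strand were not given in the sources used here. Whole-number counts per gene make up the deposited count table. The deposited FPKM values equal those counts divided by gene length and 1 constant per library, as found from the values, and 2 columns of group means were not used.

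Genes passing filterByExpr (16859) were scaled by TMM, and MeHg was compared with Control by the quasi-likelihood test of edgeR 4.0.16 in R 4.3.3, adjusted by Benjamini-Hochberg over all of them. The SE is the log2 fold change divided by the square root of F. CPM use TMM-scaled totals, except the 0.5 CPM floor, which uses column totals. Log2 ratios are of group means. The procedure was tested on simulated data.

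The genes, lists and alternatives were chosen with earlier results of these data known. Named genes were Foxj1, the 3 with the highest mean CPM and the 3 with the smallest p of each group, the extremes of fold, and those nearest the floor, and of the lists those with the smallest p or most counts. The other genes named (Efcab1, Rfx3, Rfx4, Gmnc, Ak7, Dynlrb2, Meig1, Dnah1, Dnah3, Dnah5, Dnah12, Dnah7a, Dnah7c, Dnai1 to Dnai4, Rsph3b, other Cfap genes, Gm973, Ccdc153, Tmem212, Kcne2, Mia, Enho, Mier1, Mrps18a, Pms2 and Pgs1) were named after their values were seen. GENCODE M39 matched 98.7% of gene identifiers, and for 91.9% of those the lowest coordinate lay within 1000 bases. For genes on the minus strand that coordinate is the 3′ end, so transcription starts were not compared. Some starts used lie well inside the counted span. On the minus strand, Dnaaf9 was read from 130682294 and Cfap43 from 47825821, where the spans reach 130748326 and 47907726. The upstream sequence of 1 called gene is not reported here.

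Same-numbered libraries deviated from their group means with correlations of 0.20, 0.37 and -0.24, so the numbers do not pair them. No 2 libraries of a group were copies (chi-square per degree of freedom 7.74 to 19.6). Alternatives were other scalings, filters and tests (DESeq2 1.42.0, limma 3.58.1), added terms, a loess offset for gene length, and leaving libraries out.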

Additional observations from a re-analysis of the deposited data

How the results depend on the processing

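Across all genes 398 were called, 197 with upper-quartile scaling, 2378 without a filter, 1394 with DESeq2, 648 with the replicate block, 609 with labelled sex as a term, 1723 without both libraries numbered 2, and 0 with limma on log2(FPKM + 1) or log2(FPKM + 0.1), with the choroid plexus mean as a term or with the length offset. These last 4 fits had 3874, 3887, 1954 and 3593 genes at an unadjusted p under 0.05. Leaving out 1 library gave 0 to 1091. Of the axoneme genes 7 were called, 29 without a filter, 21 with DESeq2, 13 with sex, 21 without both libraries numbered 2, 10 with the replicate block, and 0 in the 4 fits just named, and 0 to 15 with 1 library left out. Of the other motile cilium genes 5 were called higher, 2 with upper-quartile scaling or limma-voom, 35 without a filter, 20 with DESeq2, 11 with sex, 19 without both libraries numbered 2, 0 in the 4 fits, and 0 to 17 with 1 library left out. The 1 called lower, without a filter, with DESeq2 or without both libraries numbered 2, stood against 0. A fit with replicate number as a block rests on numbers that do not pair the libraries. The fit with sex took Control 2 as female by its label, which its Xist and Ddx3y levels went against.

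The log2 fold change of Foxj1 was positive in every fit, at 0.98 (adjusted p = 0.0785) and 1.13 (0.0763) with limma on log2(FPKM + 1) and (FPKM + 0.1), 1.05 (0.364) with the choroid plexus term, 1.11 (0.0726) with the length offset, and 0.96 to 1.29 with 1 library left out. The range of its adjusted p was 2.35e-11 to 0.364. The median of the axoneme genes was 0.23 with log2(FPKM + 1). There the medians were 0.17 for dynein arms, 0.44 for the nexin-dynein complex, 0.32 for tektins and 0.24 for Cfap, and dynein arms were at 0.51 with 0.1 added. With the choroid plexus term, radial spokes were at 0.34, the nexin-dynein complex at 0.54 and Cfap at 0.40. Without 1 library, dynein arms ranged from 0.552 to 1.03 and arm assembly factors from -0.004 to 0.24, reversed without Control 2. Of 606 single-gene refits 517 kept direction and side of the threshold, 53 lost a call, 25 gained one and 11 changed sign. The sign changes were Cfap36 (-0.074), Dnaaf10 (-0.14), Drc7 (-0.021) and Tekt2 (-0.12) with the choroid plexus term, and Dnaaf10 (-0.042) with the length offset. With 1 library left out, Rsph3a ranged from -0.546 to 0.033 (positive without MeHg 2), Cfap36 from -0.026 to 0.128, Dnaaf10 from -0.147 to 0.116 and Dnah7b from -0.107 to 0.252 (each lowest without MeHg 3). Dnaaf10 was at -0.069 and Dnaaf5 at -0.004 without Control 2. An arm of 2 libraries shares the pooled spread. The cause was not tested.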
